A study of Mus musculus with 4 samples.

Results

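The genes described here are the 9 membrane-bound adenylyl cyclases, Adcy1 to Adcy9, and Gnas, which encodes the stimulatory G protein subunit Gs alpha. They are 10 of the 21887 protein-coding genes of the RefSeq table. Peaks of 4 ATAC-seq libraries were merged wherever they overlapped by at least 1 bp, and every merged region inside one of these genes or within 50 kb of it was taken. This gave 808 of the 560228 merged regions of the genome. A region with a peak from every library is called a shared region below, and 144 of the 808 were of this kind (17.8%, against 15.7% of all merged regions).

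ATAC-seq marks DNA that a transposase can reach in the nucleus. The cells were mpkCCD, clone 11, a single cultured clone with features of the mouse cortical collecting duct, used between passages 8 and 10. After growth to confluence on permeable supports, all cells were moved to medium free of serum and hormones. They were harvested after 30 min with 0.1 nM dDAVP, a V2-selective analog of vasopressin, or with its vehicle. There were 2 libraries for each treatment, each from 50000 cells, and separate cultures are not stated for them, so the p-values below measure only the spread between these samples, which may be technical. All positions are on mm10.

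In the collecting duct, vasopressin binds the V2 receptor, which makes Gs alpha exchange GDP for GTP, and Gs alpha then activates adenylyl cyclase to make cAMP. The membrane cyclases all answer to Gs alpha but differ in what else they sense. Calcium with calmodulin stimulates ADCY1, ADCY3 and ADCY8, calcium at low concentrations inhibits ADCY5 and ADCY6, G protein beta-gamma subunits stimulate ADCY2, ADCY4 and ADCY7 when Gs alpha is active, and ADCY9 responds poorly to the plant compound forskolin. ADCY6 is known as a main source of vasopressin-driven cAMP in collecting duct principal cells, and Gnas is an imprinted locus with several alternative first exons, of which the one furthest downstream begins the Gs alpha mRNA.

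The libraries differed in the number of peaks called, from 205771 in dDAVP replicate 2 and 206972 in vehicle replicate 2 to 291454 in dDAVP replicate 1 and 393956 in vehicle replicate 1. The reads behind a peak are unknown, so where a peak is missing nothing was called, which does not show closed chromatin. In bulk libraries, fewer cells with an open site and less opening per cell cannot be told apart. Of the cell type markers checked for a start peak in all 4 libraries, 6 of 7 principal cell genes had one, 4 of 4 epithelial genes, 3 of 4 intercalated cell genes, 1 of 4 proximal tubule genes, 0 of 3 thick limb and distal tubule genes and 1 of 8 genes of podocytes, endothelium, leukocytes and stroma. Over all protein-coding genes, 64.3% had a start peak in all 4 libraries. The principal cell exception was Avpr2, the V2 receptor itself, with a start peak in 2 libraries.

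Promoter sequences from RefSeq (GRCm38.p6, the assembly that mm10 names) were found for 8 of the 10 genes. Adcy6 and Adcy8 had no entry. The 8 genes had 14 windows of 300 bases, from 250 bases before to 50 after an annotated start. Capitals mark TGACG or its reverse complement CGTCA, the half-site of the cAMP response element. The first pair below is shown because these windows were covered over their whole length in every library.
Gnas, chr2:174329756-174330055, plus strand, start furthest downstream: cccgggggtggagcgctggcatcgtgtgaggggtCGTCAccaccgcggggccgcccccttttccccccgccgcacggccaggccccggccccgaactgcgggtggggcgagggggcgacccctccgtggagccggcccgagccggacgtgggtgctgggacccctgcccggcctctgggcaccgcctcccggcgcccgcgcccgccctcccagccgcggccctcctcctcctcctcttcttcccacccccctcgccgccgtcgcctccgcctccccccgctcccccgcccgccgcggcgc
Adcy9, chr16:4420449-4420748, minus strand: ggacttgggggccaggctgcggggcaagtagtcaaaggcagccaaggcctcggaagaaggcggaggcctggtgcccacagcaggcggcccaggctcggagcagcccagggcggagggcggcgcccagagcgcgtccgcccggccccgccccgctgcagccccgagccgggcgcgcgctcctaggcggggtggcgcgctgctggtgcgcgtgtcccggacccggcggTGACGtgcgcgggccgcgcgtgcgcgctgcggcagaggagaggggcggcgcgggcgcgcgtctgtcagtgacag
The next window, of Adcy3, had a peak in all 4 libraries but was covered only in part in replicate 2.
Adcy3, chr12:4133147-4133446, plus strand, first start: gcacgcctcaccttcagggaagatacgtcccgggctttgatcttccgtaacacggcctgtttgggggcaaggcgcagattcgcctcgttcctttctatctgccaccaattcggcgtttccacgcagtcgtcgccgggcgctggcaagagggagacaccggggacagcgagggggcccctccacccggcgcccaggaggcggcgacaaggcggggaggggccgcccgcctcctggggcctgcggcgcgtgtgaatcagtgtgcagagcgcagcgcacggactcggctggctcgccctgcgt
The last 3 windows are shown because their peaks came from some of the libraries only.
Adcy2, chr13:68999492-68999791, minus strand: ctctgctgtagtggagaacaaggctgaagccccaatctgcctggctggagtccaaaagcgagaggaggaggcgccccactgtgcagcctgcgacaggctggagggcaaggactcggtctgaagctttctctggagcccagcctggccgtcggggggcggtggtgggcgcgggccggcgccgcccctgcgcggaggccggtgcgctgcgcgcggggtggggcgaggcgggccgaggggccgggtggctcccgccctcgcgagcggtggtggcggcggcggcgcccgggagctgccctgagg
Gnas, chr2:174327518-174327817, plus strand, a start in the middle of the gene: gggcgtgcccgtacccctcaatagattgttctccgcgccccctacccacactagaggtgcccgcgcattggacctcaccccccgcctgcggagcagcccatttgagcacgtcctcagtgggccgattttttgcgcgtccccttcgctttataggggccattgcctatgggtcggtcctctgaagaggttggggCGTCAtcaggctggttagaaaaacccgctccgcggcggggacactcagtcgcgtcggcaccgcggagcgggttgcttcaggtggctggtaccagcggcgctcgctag
Adcy7, chr8:88293954-88294253, plus strand, start furthest downstream: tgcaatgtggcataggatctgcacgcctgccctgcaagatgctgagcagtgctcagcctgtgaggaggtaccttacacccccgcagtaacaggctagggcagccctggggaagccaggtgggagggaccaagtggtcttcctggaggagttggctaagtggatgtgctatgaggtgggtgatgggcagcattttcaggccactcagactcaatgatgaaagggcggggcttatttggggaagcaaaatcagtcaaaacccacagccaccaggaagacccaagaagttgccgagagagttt

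These promoters were mostly rich in CpG. The CpG observed/expected ratio, which is high in CpG islands, was at least 0.6 in 10 of the 14 windows. It was so in 11765 of the 32851 promoter windows of all genes. Of the 10 windows here, 3 had a peak in all 4 libraries. Over all annotated promoters with such a ratio, 85.9% of 11765 windows had one. The 3 were the Gs alpha start of Gnas (ratio 0.839), Adcy9 (0.931) and the first start of Adcy3 (0.934). The CpG-rich windows without one included Adcy5 (1.05), Adcy1 (0.918) and Adcy2 (0.787). Of the 4 windows with a lower ratio, which were the second start of Adcy3 and the 3 starts of Adcy7, 0 had a peak in all 4 libraries, against 16.8% of 21086 such windows. Windows of 1 gene overlap or share a locus, so these counts are a description.

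Short motifs were searched on both strands. The full cAMP response element TGACGTCA was in 0 of the 14 windows and in 1.79% of all 32851 promoter windows. Its half-site TGACG, which lies within the full element, was in 5 of 14 windows, against 20.8% of all windows. Counted from the start, it began at -24 in Adcy9 and at -28 in the first start of Adcy7. In Gnas it began at -216 before the Gs alpha start. Before the middle Gnas starts at 174327749 and 174327768, which share 1 copy, it began at -38 and -57. The GC box GGGCGG was in 8 windows (35.7% of all), CCAAT in 5 (37.4%), TATAAA in 3 (13.6%) and the AP-1 site TGANTCA in 2 (7.81%). The 3 windows with TATAAA were all of Gnas. Each match was on the strand opposite to the gene, whose own strand reads TTTATA there. The match lay at -31 from the start furthest upstream. It lay at -85 and -104 from the middle starts at 174327749 and 174327768, which share 1 copy. A match is only a run of letters and does not show a bound factor.

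Gnas, which encodes Gs alpha, had the most fully covered start of the 10 genes. The bases covered by peaks within 1 kb of the start furthest downstream were 2001 in vehicle replicate 1, 2001 in dDAVP replicate 1, 1916 in vehicle replicate 2 and 2001 in dDAVP replicate 2, or 1980 ± 42.5 (SD, n = 4). The value 2001 is the most this measure allows, so 3 libraries stood at its ceiling. Over the whole region, chr2:174328984-174331163, peaks covered 2173, 2169, 2073 and 2157 bp in the same order, and the treatments overlapped. Of its 2180 bp, 2062 were covered in all 4 libraries. In mean coverage at its best-covered start, Gnas stood at percentile 99.8 of the protein-coding genes.

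The other annotated starts of Gnas differed from this one. Around the start furthest upstream, at 174284320, peaks covered 838, 660, 798 and 752 bp within 1 kb in vehicle replicate 1, dDAVP replicate 1, vehicle replicate 2 and dDAVP replicate 2, the order used for each set of 4 values below. The region held by all 4 libraries there, chr2:174284609-174285510, began downstream of the start, and 1 library had a peak on the start base itself. The antisense RNA gene Gnasas1, at chr2:174281237-174295436, overlaps this start. At the middle starts, 174327749 and 174327768, the covered bases were 241, 0, 0 and 0: a peak was called in vehicle replicate 1 alone. The middle starts, with a peak from 1 library, and the Gs alpha start, with a peak from all 4, lie in the same gene. Vehicle replicate 1 also has the longest peak list, and the part of list length in this was not tested.

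The Gnas window held 85 merged regions, of which 14 were shared, and no other protein-coding gene. That was 8.62 shared regions per 100 kb, percentile 72.0 of all genes and percentile 72.3 of chromosome 2, whose median gene had 4.37. Of the shared regions, 2 lay at starts, 5 inside the gene and 7 outside it. All 14 had at least 1 base covered in every library. Just past the gene, chr2:174347205-174348885 was covered over 1681, 1617, 1577 and 1520 bp, with 1504 bp common to all libraries. The inner region chr2:174298987-174301176 was less even, with 1575, 597, 1893 and 425 bp, and there both vehicle libraries were wider than both dDAVP libraries.

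Adcy6, a calcium-inhibited cyclase, lies at chr15:98589978-98610287 in a compact gene body of 20.3 kb. Its strand is not given in the tables used here, so both gene ends were taken as possible starts. At the end at 98610287, peaks covered 1207, 1209, 1208 and 1251 bp within 1 kb, or 1219 ± 21.5 bp (SD, n = 4). Their mean stood at percentile 82.5. The region there runs past the 1 kb limit on one side, which caps these values. Over its whole length, chr15:98608574-98610537, peaks covered 1920, 1663, 1825 and 1858 bp, and 1661 of 1964 bp were covered in all 4 libraries. At the opposite end, the region chr15:98590492-98591613 had a peak from each library, of 392, 965, 378 and 197 bp, but 0 bp common to all 4.

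The Adcy6 window held 55 regions, 13 of them shared, or 10.8 per 100 kb. This was at percentile 82.2 of all genes and at percentile 50.0 of chromosome 15, on which the median gene also had 10.8. Only 3 of the 13 lay at an end of Adcy6 or inside it. Another 9 lay at the starts or in the bodies of neighbouring genes, among them Ccnt1, a cyclin of transcription elongation (chr15:98567175-98568797, with 1069, 1323, 1279 and 1592 bp), and Cacnb3, a calcium channel subunit. With the gene body alone the density was 14.8 per 100 kb.

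Adcy5, the other calcium-inhibited cyclase, gave a different picture. Peaks covered 1251, 1453, 710 and 162 bp within 1 kb of its start at chr16:35154864, or 894 ± 580 bp (SD, n = 4). Both replicate 1 libraries, which also have the longer peak lists, were higher than both replicate 2 libraries, and the part of list length in this was not tested. The start region, chr16:35154412-35157155, was 2744 bp wide, and 567 bp of it were covered in all 4 libraries. In dDAVP replicate 2 the peak did not reach the start base.

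Adcy5 also had the most regions of the 10 genes, 145, of which 21 were shared, 12 of them inside the gene. Its 8.36 shared regions per 100 kb were at percentile 70.7 of all genes and 50.2 of chromosome 16. The peaks behind these shared regions often did not meet. At least 1 base was covered in every library in 11 of the 21 (52.4%), against 117 of 144 (81.3%) in all 10 windows and 88.9% of shared regions in the genome. Among the regions without a common base were chr16:35128965-35130676, with 778, 609, 556 and 1362 bp, and chr16:35177631-35179234, with 851, 169, 839 and 862 bp. When peaks were matched only where they overlapped by at least 50% of both, the density of Adcy5 was 0.398 per 100 kb.

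**Figure D1:**
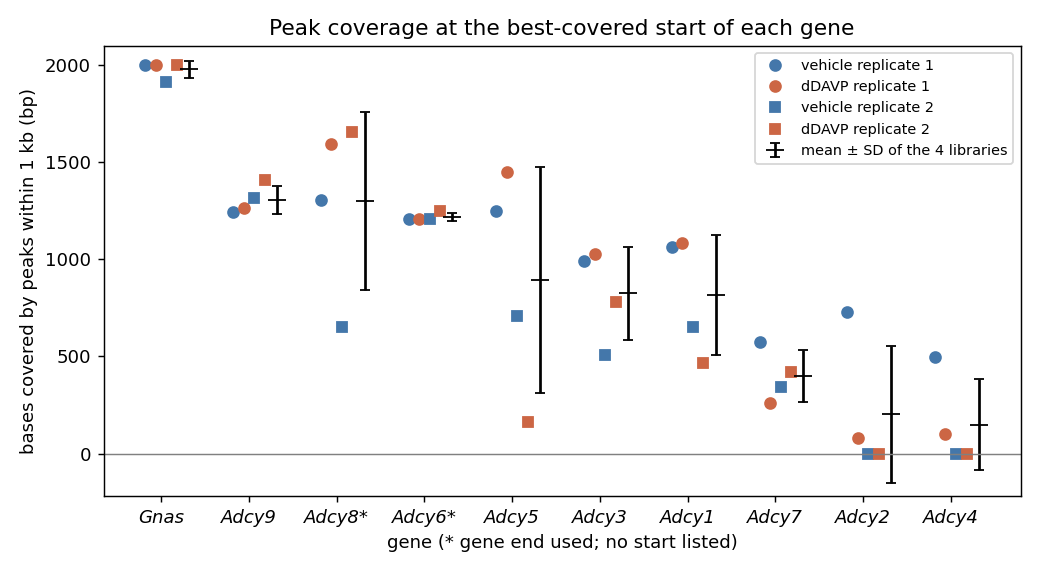
Bases covered by peaks within 1 kb of the best-covered annotated start of each gene (of either gene end for Adcy6 and Adcy8, marked *), one point per library, with the mean ± SD of the 4 libraries, whose lower bar passes below 0 for Adcy2 and Adcy4. The measure cannot pass 2001 bp. The 4 points of Gnas, Adcy9 and Adcy6 lie close together, while Adcy5 runs from 162 to 1453 bp. Adcy2 and Adcy4 are at 0 in both replicate 2 libraries. Adcy3 is shown at its second start, where no library had a peak on the start base itself.

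Among the calcium- and calmodulin-stimulated cyclases, Adcy3 had the densest surroundings of all 10 genes. It is best known as the cyclase of olfactory neurons and cilia. The gene body lies at chr12:4133116-4213525, and the window around it held 107 regions, and 26 were shared, or 14.4 per 100 kb (percentile 93.9 of all genes, 80.0 of chromosome 12, whose median gene had 11.4). Of the 26, 13 lay inside Adcy3 and 10 at the starts or in the bodies of neighbouring genes (Dnajc27, Cenpo, Ptrhd1 and Ncoa1 reach into the window). The widest, chr12:4219337-4221760 inside Cenpo, a centromere protein gene, was covered over 2413, 2424, 2418 and 2419 bp. The next widest, chr12:4178292-4180040 inside Adcy3, had 1381, 557, 1030 and 1616 bp.

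The start of Adcy3 was unevenly covered. Within 1 kb of the first start, at chr12:4133397, peaks covered 776, 1053, 184 and 780 bp, with vehicle replicate 2 the lowest. The start region chr12:4133001-4134110 had 165 bp of its 1110 bp covered in all 4 libraries. Around the second start, at 4134153, the values were 990, 1030, 506 and 780 bp. These take in much of the same start region, and 0 libraries had a peak on the second start base itself.

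Adcy1, a calmodulin-stimulated cyclase known mainly from the brain, had a shared start region at chr11:7063178-7064264. The covered bases within 1 kb of the start were 1063, 1087, 652 and 464, again with both replicate 1 libraries above both of replicate 2, and 240 bp were common to all. Its window held 76 regions and 8 shared ones, or 3.72 per 100 kb, at percentile 42.4 of all genes and percentile 23.4 of chromosome 11. Of the 8, 0 had 500 bp or more covered in all 4 libraries, against 22.8% of shared regions in the genome and 28 of 144 (19.4%) in the 10 windows. With the 50% overlap rule 0 shared regions remained. Its widest shared regions lay inside the gene, chr11:7169457-7170851 (857, 309, 1395 and 248 bp) and chr11:7161123-7162279 (1156, 169, 382 and 507 bp). The neighbours in this window were Igfbp1 and Igfbp3, binding proteins of insulin-like growth factors.

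Adcy8, the third calmodulin-stimulated cyclase, combined a wide region at one gene end with a sparse interior. Near the end at chr15:64922296, peaks covered 1305, 1593, 653 and 1658 bp within 1 kb, or 1302 ± 459 bp (SD, n = 4), and vehicle replicate 2 stood lowest. The region there, chr15:64920219-64923006, was at 2788 bp the widest shared region in the 10 windows, and 691 bp of it were covered in all libraries. The other end, at 64699035, had a peak in vehicle replicate 1 alone. Its strand is not in the tables used here either.

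Inside Adcy8, 1 of 51 regions was shared, and the 223 kb gene body with its flanks held 5 shared regions of 85, or 1.55 per 100 kb. This was percentile 20.4 of all genes but percentile 3.22 of chromosome 15, where Adcy6 also lies and where the median gene had 10.8. The window was also sparse against its surroundings: the ratio of its density to that of the surrounding 2 Mb was 0.352. Of the 85 regions, 30 were in vehicle replicate 1 alone and 17 in dDAVP replicate 1 alone. The next widest shared region, chr15:64686571-64687654, lay outside the gene, with 909, 564, 167 and 344 bp. No other protein-coding gene lies in this window.

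The beta-gamma-responsive cyclases were the most unlike each other. Adcy2, known mainly from brain, was the emptiest of the 10 windows, with 9 regions over 480 kb, 2 of them shared (0.417 per 100 kb, percentile 8.56 of all genes and 7.96 of chromosome 13). The peaks in it numbered 7, 3, 4 and 3. Inside the gene body of 380 kb a single region was shared, chr13:68899458-68899845, at 361, 366, 346 and 383 bp, and the other shared region lay at the start of the neighbour Mtrr, methionine synthase reductase. At the Adcy2 start, peaks covered 729, 78, 0 and 0 bp, so only the replicate 1 libraries had one, although the printed promoter window is rich in CpG. The density was 0.309 of that in the surrounding 2 Mb.

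Adcy4, a cyclase known from endothelium, had a dense window and a bare start. Within 1 kb of its start at chr14:55784072, peaks covered 495, 101, 0 and 0 bp, and both replicate 2 libraries had none. The window nonetheless held 16 shared regions of 51, or 13.9 per 100 kb, at percentile 92.7 of all genes and percentile 98.5 of chromosome 14, whose median gene had 3.65. Of these, 1 lay inside Adcy4, at chr14:55781147-55781872 with 477, 349, 555 and 555 bp. Another 8 lay at the starts or in the bodies of its 8 close neighbours and 7 outside genes. The widest common stretch, 1382 bp, was at Nfatc4, a transcription factor (chr14:55822541-55824200, with 1628, 1402, 1652 and 1644 bp). The widest region, chr14:55761092-55763558 at the receptor gene Ltb4r2, was uneven, with 2425, 645, 891 and 664 bp. With the gene body alone the density was 6.65 per 100 kb, 7th of the 10 genes rather than 2nd.

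Adcy7, the third of these and best known from blood cells and brain, had no single region at a start with peaks from all 4 libraries. At its start furthest downstream, chr8:88294204, peaks covered 574, 262, 342 and 422 bp within 1 kb, but from different places. A region over the start, chr8:88293810-88294269, came from both dDAVP libraries (262 and 254 bp) and neither vehicle library. The next region, chr8:88294380-88295183, came from both vehicle libraries (502 and 342 bp) and neither dDAVP library. Coverage in all 4 libraries was thus made of separate pieces. The first start had 0, 132, 284 and 240 bp and the second, at 88289066, had 0 in every library. The window held 8 shared regions of 54, or 5.07 per 100 kb (percentile 53.4 of all genes), 6 of them inside the gene. Its most uniform region was at the start of the neighbour Brd7, chr8:88361298-88362764, with 1421, 1451, 1452 and 1408 bp. Its widest inner regions were uneven: chr8:88284388-88286510 had 1397, 1367, 669 and 139 bp, and chr8:88309039-88310750 had 1164, 800, 1173 and 466 bp.

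Adcy9, which stands apart in the family by its weak answer to forskolin and is broadly expressed, had both an even start and many inner regions. Peaks covered 1246, 1264, 1314 and 1407 bp within 1 kb of its start at chr16:4420498, or 1308 ± 72.1 bp (SD, n = 4), at percentile 87.4 of all genes. The start region chr16:4419318-4420933 had 1245 bp common to all libraries. Its window held 141 regions, and its 31 shared ones were the most of any of the 10 genes, or 12.3 per 100 kb (percentile 87.8 of all genes, 80.7 of chromosome 16). Inside the gene 19 of 90 regions were shared, against 1 of 51 in Adcy8 and 12 of 89 in Adcy5. A region near the far end of the gene, chr16:4286720-4289188, was wide but uneven, with 2440, 1902, 1079 and 520 bp. So was one at its neighbour Srl, chr16:4474117-4476161, with 2045, 1405, 550 and 764 bp.

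**Figure D2:**
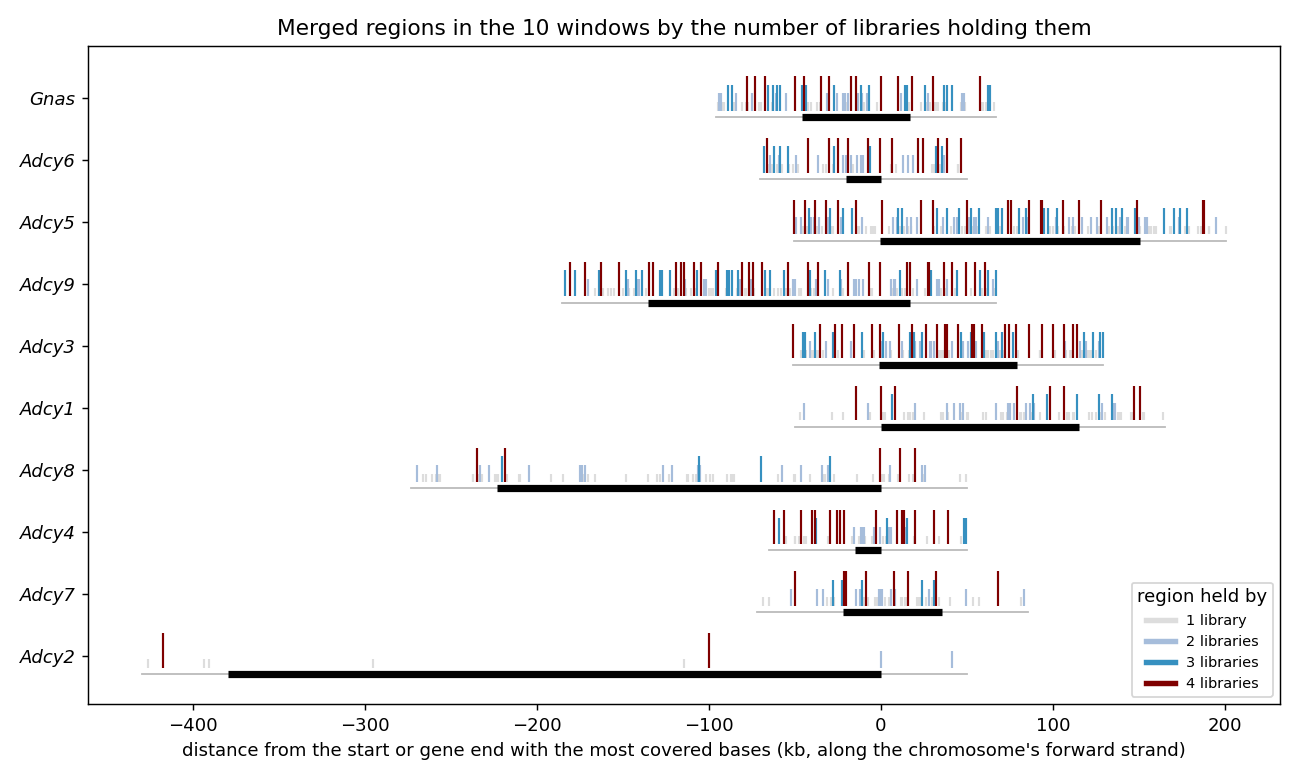
Position of each merged region in the 10 windows, as distance in kb from the best-covered start or gene end along the forward strand; taller and darker ticks mark regions held by more libraries, black bars the gene bodies and thin lines the windows. Adcy9 and Adcy3 carry shared regions along the whole gene, and Adcy2 shows 2 in all. Apart from the region over its end at 64922296, Adcy8 has 1 inside it. This one, chr15:64703190-64703645, lies near its other end at 64699035.

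Set side by side, the 10 windows had a median of 8.49 shared regions per 100 kb, against 4.66 for all protein-coding genes (quartiles 1.91 and 9.27). The density was above the median of all genes in 7 of the 10 and above the median of the same chromosome in 6. By the group of known regulators, it was 9.15 for Adcy5 and Adcy6, 5.43 for Adcy1, Adcy3 and Adcy8, and 3.46 for Adcy2, Adcy4 and Adcy7. Within the groups the range was wide, from 0.417 to 13.9 in the beta-gamma-responsive one and from 1.55 to 14.4 in the calmodulin-stimulated one. These groups were chosen after the values were known and each holds few genes.

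To order the genes with a spread over libraries, peaks per 100 kb were divided by the median gene of the same library. Adcy3 had 2.18, 3.02, 3.43 and 2.60 times that median, or 2.80 ± 0.538 (SD, n = 4). Below it came Adcy9 (2.49 ± 0.247), Adcy5 (2.47 ± 0.387), Gnas (2.34 ± 0.213), Adcy4 (2.20 ± 0.383) and Adcy6 (2.17 ± 0.337). Within these 6, each gene was compared only with the next in the order. Of these neighbours only Adcy3 and Adcy9 differed by more than the spread of their difference over libraries. That difference was 0.317 ± 0.298, with Adcy3 higher in 3 of 4 libraries. Pairs further apart among the 6 were not compared. A gap followed to Adcy7 (1.32 ± 0.265), which was 0.850 ± 0.130 below Adcy6 and lower in 4 of 4 libraries. Adcy7 and Adcy1 (1.10 ± 0.190) did not differ beyond their spread. Adcy8 (0.732 ± 0.187) was below Adcy1 and Adcy2 (0.0673 ± 0.0169) below Adcy8, each in 4 of 4 libraries and by more than the spread.

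**Figure D3:**
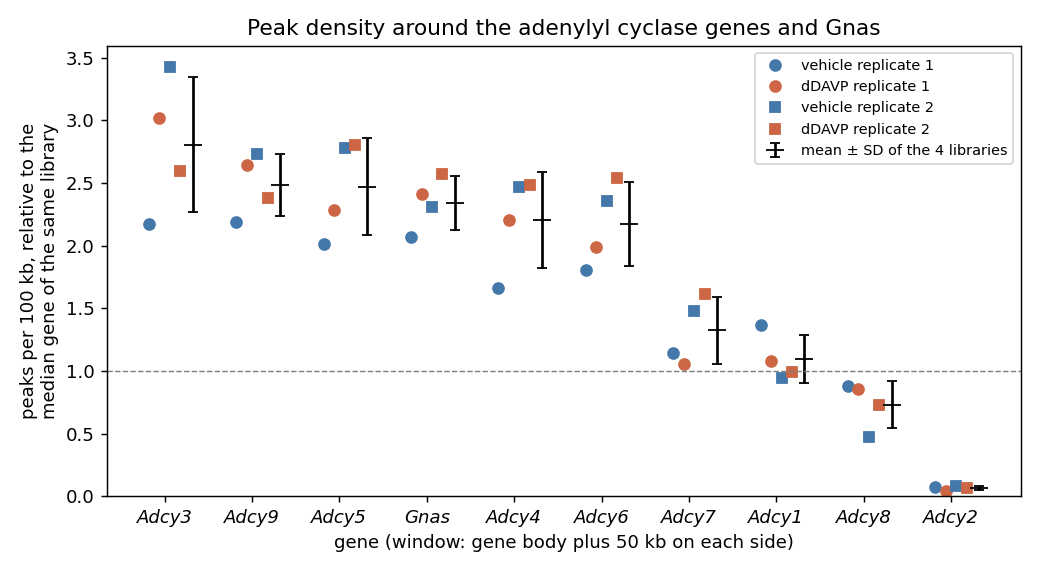
Peaks per 100 kb in the window of each gene, divided by the median gene of the same library (dashed line at 1), one point per library with the mean ± SD of the 4 libraries. The points of the 6 genes from Adcy3 to Adcy6 overlap between 1.66 and 3.43, Adcy7 and Adcy1 lie a little above 1, and Adcy2 is close to 0.

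The placement of regions differed between starts and the rest of the windows. At the starts or ends of the 10 genes 9 of 23 regions were shared (39.1%), and at those of neighbouring genes 15 of 24 (62.5%). The share was 15.3% inside the 10 genes (63 of 411), 16.1% inside neighbours (22 of 137) and 16.4% outside genes (35 of 213). Shared regions at the members' own starts had a median width of 1616 bp, and those inside the genes 793 bp. A peak within 1 kb of a start or gene end was found in all 4 libraries for 8 of the 10 genes (80%), against 64.3% of all protein-coding genes. The exceptions were Adcy2 and Adcy4, with such a peak in both replicate 1 libraries, and Adcy7 passed by separate regions.

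**Figure D4:**
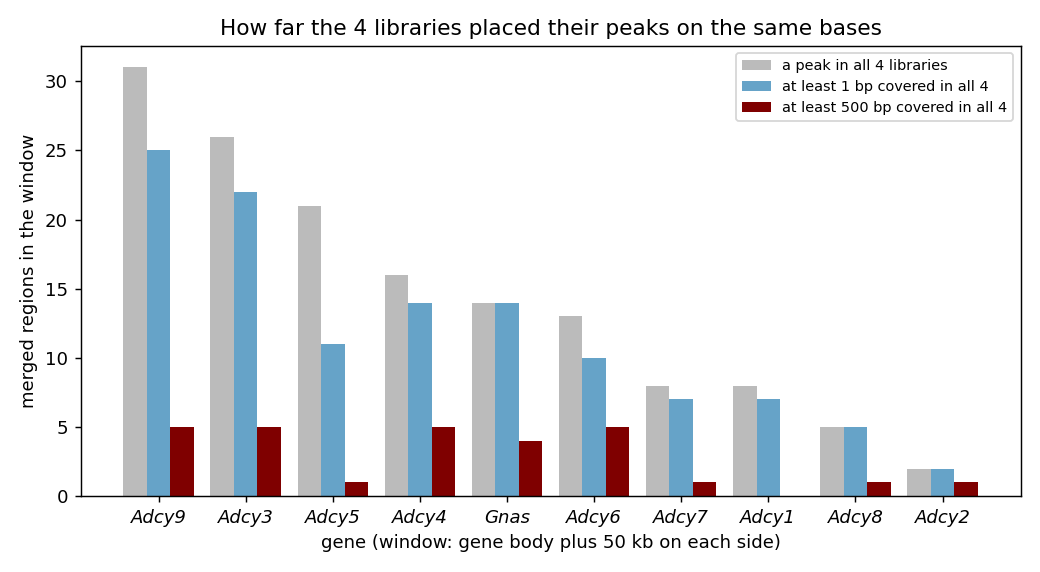
Number of merged regions in each window with a peak in all 4 libraries (grey), with at least 1 bp covered in all 4 (blue) and with at least 500 bp covered in all 4 (dark red). All 14 of Gnas keep a common base, 11 of 21 do in Adcy5, and Adcy1 has 0 with 500 bp.

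Other genes of the pathway were taken from a list of 25, with both gene ends used where no start was listed. A start peak in all 4 libraries was found for 19 of them (76%, against 64.3% of all protein-coding genes). They included 5 of 5 inhibitory G alpha genes, 7 of 9 G beta and gamma genes, 6 of 7 regulators (all but Cap2, a cyclase-associated protein with a start peak in 3 libraries), and 1 of 3 genes on the stimulatory side. That 1 was Ric8b, a chaperone of Gs-type alpha subunits, with 1233 bp of mean coverage at its best start. The exceptions there were Avpr2, in 2 libraries, and Gnal, the olfactory relative of Gs alpha, in vehicle replicate 1 alone. Adcy10, the soluble cyclase, had no start peak in any library. In shared regions per 100 kb over these 4 libraries, the list gene nearest to Adcy6 (10.8) was Gnai3 (10.8), and nearest to Gnas (8.62) were Ric8b (8.95) and Gng5 (7.57).

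The study compared dDAVP with vehicle at 30 min. Peaks in the 10 windows numbered 579 and 353 in the vehicle libraries and 464 and 345 in the dDAVP libraries, so the treatments overlapped. The difference, dDAVP minus vehicle, was -61.5 peaks (404.5 ± 84.1 against 466 ± 160, SD, n = 2 each, two-sided exact permutation p = 0.667). Without vehicle replicate 1, the longest list, it was 51.5 in the opposite direction. As a share of the peaks of its library the windows took 0.147% and 0.171% after vehicle and 0.159% and 0.168% after dDAVP (two-sided exact permutation p = 1). With 2 against 2 libraries such a test cannot give a p below 0.333.

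Covered length per window was compared with limma over 21397 genes, as log2 of the covered bases plus 200 after quantile normalization. With Benjamini-Hochberg adjustment 0 of the 10 genes were called, and 0% of all genes were called in either direction (393 genes, or 1.84%, at an unadjusted p under 0.05). All folds below are on this log2 scale, dDAVP minus vehicle. Gnas differed by -0.05 (95% interval -0.53 to 0.42) and Adcy6 by 0.12 (-0.39 to 0.63). These intervals rest on 2 libraries per treatment, whose spread may be technical, so they do not exclude larger changes. The intervals of Adcy1 (-0.71, from -1.56 to 0.13) and Adcy8 (0.08, from -0.94 to 1.10) were wider.

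With all libraries and the 50 kb flanks, Adcy7 alone had an interval that left out 0, with -0.54 (-1.03 to -0.05, unadjusted p = 0.0362, adjusted p = 1.00 by limma). Its normalized log2 values were 13.54 and 13.38 in the vehicle libraries and 12.85 and 12.98 in the dDAVP libraries, which did not overlap. With any 1 library left out its interval took in 0. For Adcy1 the difference ran from -1.10 to -0.31 with 1 library left out, and its interval left out 0 without vehicle replicate 2 (-1.82 to -0.38), in the gene body alone (-1.58 to -0.05), with 10 kb flanks and with the replicate block (-1.23 to -0.20). The vehicle and dDAVP values also did not overlap in Adcy1 (13.87 and 13.07 against 12.92 and 12.60), Adcy2 (11.24 and 10.95 against 10.41 and 10.87) and Adcy5 (14.82 and 14.72 against 14.57 and 14.57). Both dDAVP libraries were thus lower in 4 of the 10 genes, against 11.3% of all genes, and both higher in 0, against 11.9%. Of the 10 genes 8 were lower and 2 higher after dDAVP, with a median of -0.10 against 0.02 over all genes. The share of all genes that were lower was not counted. All 10 genes were read from the same libraries, and 0 of these differences passed the test.

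**Figure D5:**
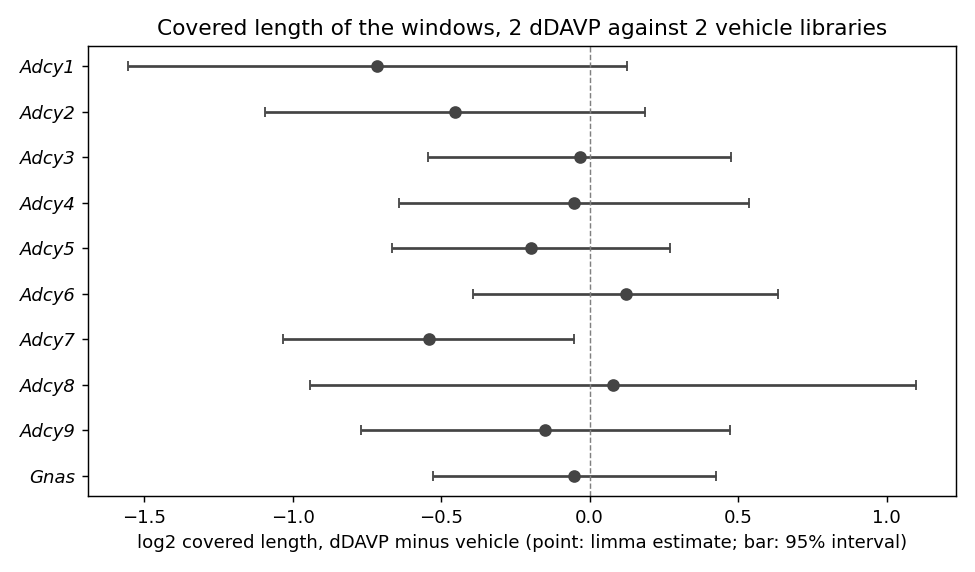
Difference in log2 covered length of each window, dDAVP minus vehicle, with the limma estimate as a point and its 95% interval as a bar. Of the 10 intervals 9 include 0 and that of Adcy7 ends at -0.05.

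The widths of single shared regions were compared in the same way over 88231 regions. Of the 144 in these windows 0 were called, and 0% were called in the genome in either direction. At an unadjusted p under 0.05 there were 10 (6.94%), against 5.28% of all regions. The largest differences in log2 width, dDAVP minus vehicle, were -2.83 inside Adcy9 at chr16:4311595-4312531 and 2.14 in the neighbour Hacd2 of Adcy5 at chr16:35104008-35104761. In the Hacd2 region, peaks covered 122 and 148 bp in the vehicle libraries and 680 and 466 bp in the dDAVP libraries. The inner Gnas region at chr2:174298987-174301176 differed by -1.70. The adjusted p was 0.870 for each of the 3 by limma.

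Regions called in both libraries of a single treatment were few. There were 15 with a peak from each dDAVP library and none after vehicle (1.86% of 808, against 1.61% in the genome). The reverse held for 38 (4.70%, against 3.35%). Adcy5 had 6 and 9 of these, Gnas 2 and 5, Adcy9 2 and 5, Adcy6 2 and 4, Adcy8 2 and 2, Adcy7 1 and 3, Adcy3 0 and 4, Adcy1 0 and 5, Adcy4 0 and 1, and Adcy2 0 and 0. Under the 50% overlap rule there were 27 of each kind, or 2.15% of 1257 regions here. The genome shares were then 1.54% for dDAVP and 2.18% for vehicle. The counts also moved with the libraries used. With 1 library left out they ran from 23 to 117 for dDAVP and from 65 to 214 for vehicle. The share in the genome moved with them. The first was 117 without dDAVP replicate 2 (15.2% of regions here, 15.8% in the genome), 72 without dDAVP replicate 1 (9.86% and 9.74%), 61 without vehicle replicate 1 (9.10% and 7.55%) and 23 without vehicle replicate 2 (2.96% and 2.85%). The second was 214 without vehicle replicate 2 (27.6% and 32.7%), 94 of 670 without vehicle replicate 1 (13.9% in the genome), 86 without dDAVP replicate 1 (11.8% and 8.74%) and 65 without dDAVP replicate 2 (8.43% and 5.60%).

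Those over 300 bp numbered 6 for dDAVP (0.743% of the 808 regions, against 0.756% in the genome) and 25 for vehicle (3.09%, against 1.87%). The widest dDAVP region was the 460 bp one over the downstream start of Adcy7. The others lay at chr15:64750127-64750551 inside Adcy8, chr16:35286029-35286454 and chr16:35175609-35175936 inside Adcy5, chr2:174298347-174298686 inside Gnas and chr15:98626026-98626358 beside Adcy6. The last of these was covered over 333 and 305 bp in the dDAVP libraries.

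The widest vehicle region, chr8:88299524-88300886 inside Adcy7, covered 1328 and 537 bp, so Adcy7 held the widest of both kinds. Inside Adcy5 there were 5 vehicle regions over 300 bp, chr16:35190648-35191558 (911 and 250 bp), chr16:35297335-35298235 (443 and 901 bp), chr16:35276759-35277615 (857 and 576 bp), chr16:35298292-35298874 (391 and 324 bp) and chr16:35264008-35264355 (337 and 108 bp). Inside Adcy1 there were 3, chr11:7101588-7102174, chr11:7105790-7106358 and chr11:7138329-7138744, each wider in vehicle replicate 1. Inside Adcy9 there were also 3, chr16:4338055-4338837, chr16:4369418-4369766 and chr16:4404462-4404836. Gnas had 2 inside the gene, chr2:174307471-174308132 and chr2:174308953-174309520, and 1 past its end at chr2:174357137-174357997 (631 and 483 bp). Inside Adcy6 lay chr15:98592484-98592816 and chr15:98596147-98596477, with 324 and 296 bp in the first and 274 and 182 bp in the second. The single one inside Adcy3 was chr12:4181675-4182216 (197 and 519 bp), and that inside Adcy8 was chr15:64800663-64801024 (276 and 148 bp). Those in or at neighbouring genes were chr11:7199182-7200194 in Igfbp1 (101 and 1013 bp), chr14:55788423-55789023 at Ripk3 (601 and 285 bp) and chr8:88343257-88343597 in Brd7 (95 and 341 bp). Outside genes lay chr16:35309694-35310078 past Adcy5 (110 and 385 bp) and chr15:64945786-64946189 past Adcy8 (110 and 295 bp).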

How the data were processed

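ATAC-seq libraries of mpkCCD cells (50000 cells each, paired-end reads of 50 bases) came with 1 peak list per library. Per the submitters' processing notes the tools were MACS2, Bowtie2, cutadapt, Picard, SAMtools and bedtools, and the build mm10. Their versions and settings, the treatment of duplicates and a Tn5 offset of the reads were not given in the sources used here. Each deposited list holds peak positions only (other values: chromosome, start and end), with no score, so sequencing depth is unknown and counting intervals are left out.

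Peaks overlapping by 1 bp or more were merged with Python 3.11.15 and checked with bedtools 2.31.1. Windows were gene bodies of a RefSeq table on GRCm38.p6 plus 50 kb on each side. That table has no strand or exons, so no region is placed in an exon, intron or UTR. Starts were those of the RefSeq promoter table, or both gene ends where it has none. A region counted as at a start within 1 kb of it. Covered lengths (plus 200 bp) and widths of shared regions were log2 transformed, quantile normalized and compared with limma 3.58.1 and Benjamini-Hochberg adjustment at 0.05, over all genes or all shared regions. Peak numbers were compared with exact permutation tests. The merging step and the limma fit of covered length were tested on simulated data. That fit called 0% of the genes given a simulated log2 change of 1 or 2. It called 43.5% of those given a change of 3.

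The 10 genes, the pathway and marker lists and the tests were chosen with earlier results of these data known. By the rule for named items the text gives all 10 genes, their start regions, their widest shared regions, regions over 300 bp called in a single treatment, and the 2 list genes nearest to Adcy6 and to Gnas, of which 1 is not reported here. The groups of cyclases by regulator, the bases covered in all 4 libraries with their limit of 500 bp, the surrounding 2 Mb, the counts of genes whose treatment values do not overlap and other named regions were chosen after their values were seen. A stricter peak score could not be tried and was replaced by peak width. The closing section gives the alternatives.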

Additional observations from a re-analysis of the deposited data

How the results depend on the processing

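Peak depth is unknown, list lengths differ and there are 2 libraries per treatment, so the fits have little power: large changes can also go uncalled, and 0 calls do not show equal accessibility. The 10 windows together held 6.38 shared regions per 100 kb. This was 3.15 with the wider peaks (those of median width or more), 2.30 where peaks had to overlap by 50% of both, and 6.56 to 8.28 with 1 library left out. Under the 50% rule Adcy1 had 0. Across windows, peak widths, the overlap rule and libraries left out (10 settings) Adcy8 kept rank 9, Adcy2 ranked 7 to 10, Adcy3 1 to 3 and Adcy4 1 to 7. Start peaks in all 4 libraries were found for 7 of the 10 genes at 0.5 kb (61.0% of all genes) and 9 at 2.5 kb (69.7% of all genes). In the other alternatives they were found for 8. Regions of both dDAVP libraries alone numbered 15 of 808 (1.86%, 1.61% in the genome). They numbered 8 of 432 in gene bodies (1.85%, 1.61%), 9 of 505 within 10 kb (1.78%, 1.61%), 9 of 464 with the wider peaks (1.94%, 1.74%) and 27 of 1257 under the 50% rule (2.15%, 1.54%). Those of both vehicle libraries alone numbered 38 of 808 (4.70%, 3.35% in the genome). In gene bodies they were 27 of 432 (6.25%, 3.35%), within 10 kb 29 of 505 (5.74%, 3.35%) and within 100 kb 47 of 1212 (3.88%, 3.35%). For gene bodies and all flanks, the genome share of either kind is over all merged regions, not over regions in or near genes alone. They were 28 of 464 with the wider peaks (6.03%, 3.36%) and 27 of 1257 under the 50% rule (2.15%, 2.18%). With 1 library left out the dDAVP regions ran from 23 to 117 and the vehicle regions from 65 to 214. The difference in peaks (-61.5) ran from -174.5 to 51.5 with 1 library left out, and was reversed, at 51.5, without vehicle replicate 1. The difference in share (0.00467 percentage points) was -0.000647 with 10 kb flanks, -0.0117 with the widest peaks, -0.0237 with the wider peaks and -0.00712 without vehicle replicate 1. Its range with 1 library left out was -0.00712 to 0.0165. No alternative called any of the 10 genes or their regions by limma, and the smallest adjusted p were 0.835 and 0.775. Of 140 log2 differences per gene under alternatives, 131 kept their direction and 9 reversed, 8 of these with 1 library left out. With 1 library left out Adcy3 ran from -0.142 to 0.0820, Adcy4 from -0.270 to 0.176, Adcy6 from -0.0106 to 0.253, Adcy8 from -0.396 to 0.553, Adcy9 from -0.391 to 0.106 and Gnas from -0.118 to 0.00931. Adcy8 was -0.0916 with the wider peaks. The cause was not tested. Nothing in the labels pairs libraries by replicate number. With the replicate block 0 of 10 genes were called, and 1099 genes instead of 393 had an unadjusted p under 0.05. In the block the difference in peaks of -61.5 had an exact p of 0.5, the smallest possible. Deviations of same-numbered libraries correlated at 0.452 over genes and 0.0969 over region widths.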
